A study of Mus musculus with 2 samples.

Results

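The genes described here are the metallothioneins Mt1 and Mt2, the zinc importer Slc39a14 (ZIP14), the zinc exporter Slc30a1 (ZnT1) and Mtf1, which encodes the metal-responsive transcription factor 1. They are 5 of the 28692 genes in the count tables and were picked by symbol, with their pattern in these data already known, so their levels are a description. The cells were mononuclear cells from livers of C57BL/6 mice on day 14, from which hepatocytes had been depleted by slow centrifugation, and 5′ ends of their transcripts were sequenced in droplets and counted as unique molecular identifiers (UMIs). For the MC38 library, 500000 cells of MC38, a line from a mouse colon adenocarcinoma, were injected into the spleen and the spleen was taken out afterwards. The control library came from mice given PBS into the spleen and is labelled as having no tumor. The protocol text, shared by both groups, also names 3000000 MC38 cells under the skin, and the sources used here do not say whether the control mice carried that tumor or lost the spleen. Each library pooled 3 mice, so there was 1 library per group and no test between groups was possible. The design asks how liver immune cells differ when a colorectal tumor grows in the organ.

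Metallothioneins are small cysteine-rich proteins that bind zinc and copper, and in the liver their genes are switched on by zinc, by glucocorticoids and by inflammatory signals such as interleukin-6. Zinc enters the cytosol through Slc39 (ZIP) carriers and leaves it through Slc30 (ZnT) carriers, and ZIP14 is a carrier through which hepatocytes take up zinc during the acute-phase response. MTF1 senses zinc and binds metal response elements, short motifs that lie in the promoters of the mouse genes Mt1, Mt2 and Slc30a1. Hepatocytes hold large amounts of metallothionein RNA, so RNA that escapes from them can enter droplets with other cells. Alb, which encodes serum albumin, and Orm1, which encodes an acute-phase glycoprotein of the liver, were therefore counted beside the 5 genes.

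Mt1 (ENSMUSG00000031765) lies at chr8:94179082-94180327 and Mt2 (ENSMUSG00000031762) at chr8:94172664-94173568, both on the plus strand of GRCm38 in the GENCODE M21 annotation. The end of Mt2 and the start of Mt1 are 5514 bases apart. Slc30a1 (ENSMUSG00000037434) lies at chr1:191906767-191913247 and Mtf1 (ENSMUSG00000028890) at chr4:124802104-124849800, both on the plus strand. Slc39a14 (ENSMUSG00000022094) lies on the minus strand at chr14:70303469-70351425. Promoters of 4 of the 5 genes matched the RefSeq promoter table (GRCm38.p6), all but Slc39a14. The 250 bases before the RefSeq start of the metallothionein pair, which move together below, and of Slc30a1, which does not move with them, follow from 5′ to 3′ on the plus strand, with matches to the metal response element core on either strand in capitals. They span chr8:94178839-94179088 for Mt1, chr8:94172368-94172617 for Mt2 and chr1:191906531-191906780 for Slc30a1.
Mt1: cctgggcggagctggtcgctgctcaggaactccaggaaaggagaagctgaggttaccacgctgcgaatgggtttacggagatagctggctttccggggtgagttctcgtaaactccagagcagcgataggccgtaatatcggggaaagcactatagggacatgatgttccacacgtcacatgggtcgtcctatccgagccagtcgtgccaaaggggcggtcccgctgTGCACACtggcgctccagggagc
Mt2: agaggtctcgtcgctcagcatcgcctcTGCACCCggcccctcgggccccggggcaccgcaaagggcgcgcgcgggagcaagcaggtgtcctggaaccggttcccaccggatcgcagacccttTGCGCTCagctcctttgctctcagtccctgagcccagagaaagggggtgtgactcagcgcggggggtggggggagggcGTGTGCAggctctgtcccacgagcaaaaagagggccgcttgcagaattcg
Slc30a1: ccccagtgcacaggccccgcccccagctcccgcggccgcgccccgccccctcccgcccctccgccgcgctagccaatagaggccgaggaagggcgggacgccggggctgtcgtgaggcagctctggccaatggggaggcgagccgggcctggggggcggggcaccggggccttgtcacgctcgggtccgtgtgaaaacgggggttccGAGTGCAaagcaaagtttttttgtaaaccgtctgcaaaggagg

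The core was searched as TGCACNC or TGCGCNC on both strands, 2 spellings that cannot overlap at the same position. In these 250 bases Mt1 held 1 match, Mt2 held 3, Slc30a1 held 1 and Mtf1 held 0. The windows follow the RefSeq starts, which differ from the gene starts given above. That of Mtf1, chr4:124802299-124802548, lies inside the gene as placed above, so its count does not cover the bases before that gene start. Of 32851 promoters in the table, 21.4% held at least 1 match and 1.26% at least 3. The window was then widened to the 300 bases of the table, which add 50 bases after the start, a choice made after the first counts were seen. In it Mt1 held 3 matches, Mt2 held 4, Slc30a1 held 2 and Mtf1 held 0, beside 1.97% of promoters with at least 3, 0.517% with at least 4 and 7.11% with at least 2. The match nearest to the start of Mt1 on its upstream side, TGCACAC, begins 23 bases before it. The other 2 Mt1 matches, TGCACTC and TGCGCTC, lie after that start, at bases 3 and 21, and so outside the printed sequence. Where transcription begins in these cells was not examined, so before and after refer to the RefSeq start alone. The count of matches upstream of Mt1 depends on that start. A match is a string of letters and does not show that a factor binds there.

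There were 91617457 UMIs on 14258 barcodes in the control and 114421875 on 19822 in MC38, and 63 barcode sequences occurred in both libraries. Over 10% of UMIs were mitochondrial in 74.8% of control and 33.3% of MC38 barcodes, and after filtering 3439 and 11855 barcodes were kept. Cells were named by gates on marker genes, so a class name means cells that carry the markers of that type. The gates named 2699 control and 6539 MC38 barcodes as immune, and Ptprc, the pan-leukocyte gene, had a UMI in 95.1% and 91.3% of them. The libraries also differ in hepatocytes: 3080 MC38 barcodes, 26.0% of those kept, passed the hepatocyte gate, beside 34 control barcodes. The gate for epithelial or tumor cells passed 2 MC38 barcodes, too few to describe. Of the classes, 10 had at least 50 cells in both libraries and 14 immune classes had at least 50 in the MC38 library. Intervals are 95% intervals that cover counting error only, with exact Poisson bounds on levels, exact binomial bounds on shares and exact conditional bounds on ratios. Levels are in CPM, UMIs of a gene scaled to a fixed total of UMIs per class and library, as in counts per 1e6.

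Both metallothioneins were far higher in the immune cells of the MC38 library. Over all gated immune cells Mt1 had 462 control and 23646 MC38 UMIs, which is 20.0 CPM (18.2 to 21.9) and 384 CPM (379 to 389). Per barcode this was 0.171 and 3.62 UMIs. The log2 fold of MC38 over control was 4.26 (4.13 to 4.40). Mt2 had 41 and 3889 UMIs, or 1.77 CPM (1.27 to 2.40) and 63.1 CPM (61.2 to 65.1), a log2 fold of 5.15 (4.71 to 5.64). Neither pair of intervals overlapped. The transporters and the regulator stood close to level between the libraries, with log2 folds of -0.10 for Slc39a14, -0.17 for Slc30a1 and 0.18 for Mtf1. Of 12494 genes that reached 50 UMIs when both libraries were added, 8.36% were at least 2-fold higher and 11.6% at least 2-fold lower in MC38, and of the 5 genes Mt1 and Mt2 were at least 2-fold higher and none was at least 2-fold lower. The median log2 fold over 10675 genes was -0.15, so a log2 fold of that size is the level of the typical gene.

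A UMI of Mt1 was found in 9.67% (8.58 to 10.8) of control and 84.1% (83.2 to 85.0) of MC38 immune barcodes, whose median depths were 7621 and 9741 UMIs. With each barcode thinned to 1000 UMIs (18 control and 86 MC38 barcodes were shallower and not used), the shares were 1.75% and 29.7%. For Mt2 the shares were 1.0% and 34.3% unthinned and 0.0746% and 7.36% thinned. No gated class is known to lack Mt1, so a class without the gene was not at hand as a measure of background. Barcodes with under 200 genes were counted instead, 113 in the control and 255 in MC38. Their median depths were 2207 and 3482 UMIs, and they held 0.106 and 1.05 Mt1 UMIs each. These depths exceed the 1626.5 UMIs of MC38 hepatocyte-gated barcodes. Which other RNA fills them was not examined, so they are not a clean measure of background.

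Mt1 was higher in MC38 in each of the 10 classes with enough cells in both libraries. In T cells it had 120 and 1121 UMIs, which is 18.2 CPM in the control and 356 CPM in MC38, a log2 fold of 4.29 (4.01 to 4.57). The smallest log2 fold was in cDC2, the conventional dendritic cells that present antigen mainly to CD4 T cells, with 49 and 343 UMIs, 41.3 and 397 CPM, and a value of 3.27 (2.83 to 3.73). In cDC1, the cross-presenting type, 32.9 and 349 CPM gave 3.41 (3.03 to 3.81). In classical monocytes 105 and 6435 UMIs gave 19.9 and 318 CPM, a log2 fold of 4.0 (3.72 to 4.29). The control and MC38 intervals did not overlap in these classes or in any of the 10. The conventional dendritic cells had the highest control levels of the 10 classes, and their MC38 levels lay inside the range of the others.

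Nonclassical monocytes, which patrol vessel walls, had 18.1 and 314 CPM of Mt1, a log2 fold of 4.11 (3.58 to 4.69). The class NK or ILC1, natural killer cells and the innate lymphoid cells closest to them, had 17 and 329 UMIs, with a log2 fold of 4.98 (4.28 to 5.78). Kupffer cells, the resident macrophages of the liver, had 8 and 1335 UMIs, 26.4 and 830 CPM, and 4.97 (3.99 to 6.19). These folds rest on few control UMIs and their intervals are wide. Plasmacytoid dendritic cells (pDC), known for type I interferon, had 13 and 257 UMIs and 5.51 (4.71 to 6.44), and B cells had 13 and 2332 UMIs and 5.55 (4.78 to 6.46). In mast cells or basophils 3 control and 214 MC38 UMIs gave a log2 ratio of 5.67 (4.10 to 7.96), the highest point value with the widest interval. Among all genes tested, the share at least 2-fold higher in MC38 was 3.71% in T cells, 1.74% in NK or ILC1, 4.19% in B cells, 1.2% in pDC, 1.85% in cDC1, 3.49% in cDC2, 6.45% in classical monocytes, 3.62% in nonclassical monocytes, 9.24% in Kupffer cells and 4.15% in mast cells or basophils. The share at least 2-fold lower was 2.2% in T cells, 1.8% in NK or ILC1, 1.85% in B cells, 1.86% in pDC, 2.83% in cDC1, 3.65% in cDC2, 5.07% in nonclassical monocytes, 5.82% in Kupffer cells and 3.14% in mast cells or basophils, and none of the 5 genes was called lower in those classes.

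**Figure D1:**
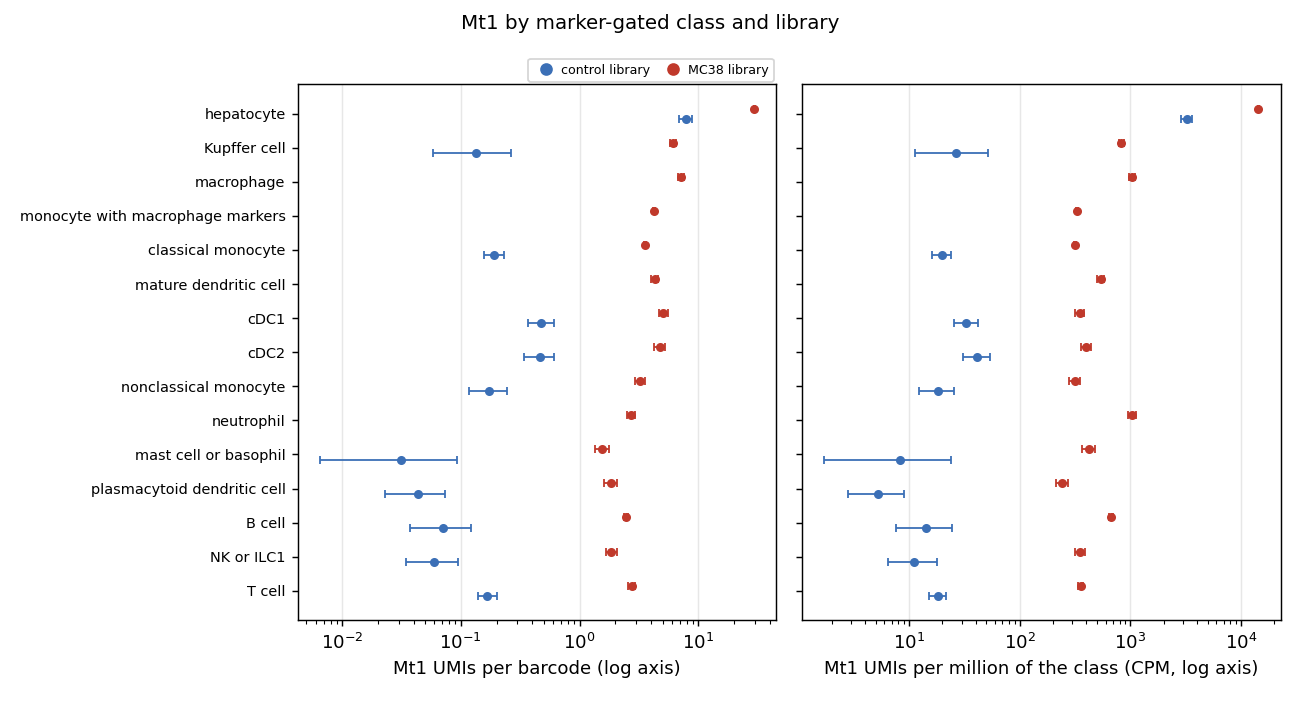
Mt1 UMIs per barcode (left) and CPM (right), both on log axes, for each class with at least 50 cells in a library, plus the 34 hepatocyte-gated control barcodes. Points are the summed level of 1 library and bars exact 95% Poisson intervals; every MC38 point lies to the right of the control point of its class, and hepatocyte-gated barcodes lie far above the immune classes in both libraries.

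The order of the classes by Mt1 level differed between the libraries. In the control it ran from 5.28 CPM in pDC through 8.28 in mast cells or basophils, 11.2 in NK or ILC1 and 14.2 in B cells to 26.4 in Kupffer cells, 32.9 in cDC1 and 41.3 in cDC2. The intervals of neighbours in that order overlapped. In MC38 pDC were again lowest, at 241 CPM, and nonclassical monocytes, classical monocytes and monocytes with macrophage markers (a class with 25 control barcodes) followed at 314, 318 and 329 CPM with overlapping intervals. The top of the order held mature dendritic cells at 540, B cells at 668, Kupffer cells at 830, macrophages at 1036 and neutrophils at 1040 CPM. The intervals of the last pair overlapped (976.5 to 1097 and 955 to 1132), and those of the steps before them did not. These intervals leave out the spread over barcodes, so they do not settle the order. A single neutrophil barcode held 151 of the 543 Mt1 UMIs of its class. The variance over barcodes was 43.5 times the mean in neutrophils and 74.9 times in B cells. Counted per barcode, macrophages were highest at 7.10 UMIs and mast cells or basophils lowest at 1.54, while neutrophils, with a median depth of 2086 UMIs, held 2.72. The plot of Mt1 by class shows both orders.

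The 4 classes with the highest Mt1 CPM also held most hepatocyte RNA in CPM. Neutrophils held 1083, B cells 952, macrophages 837 and Kupffer cells 750 CPM of 10 hepatocyte genes in MC38, beside 257 CPM in classical monocytes and 236 in monocytes with macrophage markers. Mature dendritic cells, next in that order, held 463 CPM, less than NK or ILC1 with 587 CPM. Ptprc had a UMI in 54.3% of both MC38 Kupffer cells and MC38 macrophages, and in 97.1% of MC38 classical monocytes. The part of these values in the order of Mt1 was not tested.

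Mt2 followed Mt1 at a lower count. It was at least 2-fold higher in MC38 in the 9 classes where it had at least 50 UMIs, and in cDC2, the tenth, it had 2 and 35 UMIs with a log2 ratio of 4.59 (2.63 to 7.69). T cells had 12 and 253 UMIs, or 1.82 and 80.3 CPM, a log2 fold of 5.46 (4.63 to 6.43), and classical monocytes had 7 and 941 UMIs, or 1.33 and 46.5 CPM, with 5.13 (4.08 to 6.45). No Mt2 UMI was found in control cDC1, Kupffer cells or mast cells or basophils, so only a bound can be given. The interval on the ratio of MC38 to control began at 31.3-fold in cDC1, 12.1-fold in Kupffer cells and 10.1-fold in mast cells or basophils. With the control set to a floor of 3 counts, the ratios were 39.3, 14.95 and 12.85. These floor ratios leave out counting error in MC38 and are not lower bounds. The 9 control UMIs of Mt2 in NK or ILC1 cells came from 0.348% of 287 barcodes, a single barcode, and without it the class would have none. Mt1 and Mt2 are close paralogs, and the sources used here do not say how reads that match both were assigned, so the division between them is uncertain.

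Hepatocyte-gated barcodes held the highest levels of both genes. In MC38 they had 91329 Mt1 UMIs, 14385 CPM or 29.7 per barcode, and 20459 Mt2 UMIs, 3222 CPM. The 34 control barcodes had 267 and 58 UMIs, 3235 and 703 CPM. The log2 fold between the libraries was 2.15 (1.98 to 2.33) for Mt1, 2.197 (1.83 to 2.59) for Mt2, 2.51 (2.10 to 2.96) for Orm1 and 0.34 (0.17 to 0.51) for Alb. Without the mitochondrial limit 195 control and 4557 MC38 barcodes passed the gate, and the values were 2.66, 2.40, 2.46 and 0.31. Of the 34 control barcodes 14.7% also held a Ptprc UMI, beside 3.54% in MC38.

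Orm1 moved with the metallothioneins in the immune cells, and Alb rose less. By class, with the 10% mitochondrial limit, the log2 fold of Alb ran from 0.43 in cDC1 to 2.24 in B cells. Mt1 had 3.41 and 5.55 in those classes. In immune cells the log2 fold of Alb was 0.86 (0.77 to 0.96), from 49.2 CPM in the control to 89.6 CPM in MC38. For Orm1 it was 4.34 (3.96 to 4.74), from 2.51 to 50.6 CPM. The Orm1 interval holds the Mt1 value of 4.26. All 11 genes of the hepatocyte list had UMIs in the immune cells of both libraries, and 10 of them without Hp summed to 90.9 and 350 CPM. Hp was left out after values were seen, because it reached 797 and 1098 CPM in classical monocytes and 2635 CPM in MC38 neutrophils. Without the mitochondrial limit Mt1 stood at 19.7 and 422 CPM while Alb had a log2 fold of -0.33 (-0.37 to -0.29), with 150 CPM in the control and 119 CPM in MC38. The direction of Alb between the libraries thus depends on that limit and those of Mt1 and of Orm1 (3.98 and 62.5 CPM) do not.

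The ratios of the metallothioneins to the hepatocyte transcripts were then compared between classes of the MC38 library. In MC38 hepatocyte-gated barcodes there were 3.34 (3.30 to 3.39) Mt1 UMIs per Alb UMI, 4.42 (4.35 to 4.49) per Orm1 UMI and 0.224 (0.221 to 0.227) Mt2 UMIs per Mt1 UMI. A class was counted as above or below where its interval did not overlap that of the hepatocyte-gated barcodes. These intervals take UMIs as independent and leave out the spread over barcodes, so they are too narrow and the counts are a description. The variance of Mt1 over MC38 barcodes was 38.1 times the mean in cDC1, 74.9 times in B cells and 26.6 times in hepatocyte-gated barcodes. The hepatocyte transcripts did not keep the hepatocyte ratio between themselves: Orm1 per Alb was 0.756 (0.742 to 0.770) in hepatocyte-gated barcodes and 0.565 (0.541 to 0.591) over MC38 immune cells, and it lay below in 7 of the 14 immune classes and above in 0. Mt1 per Alb lay above in 6 of the 14 immune classes: cDC1, mature dendritic cells, classical monocytes, monocytes with macrophage markers, macrophages and Kupffer cells. It lay below in 4, NK or ILC1, B cells, pDC and nonclassical monocytes. Mt1 per Orm1 lay above in 8, the same 6 with T cells and cDC2, and below in 0. Mt2 per Mt1 lay below the hepatocyte value in 6 classes, cDC1, cDC2, classical monocytes, monocytes with macrophage markers, macrophages and Kupffer cells, and above it in 0. Mt2 per Orm1 lay above in 7 classes, T and B cells among them, and below in 0, and Mt2 per Alb lay above in 1, mature dendritic cells, and below in 3.

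The classes at either end show the size of these differences. Monocytes with macrophage markers had 5.20 (4.92 to 5.49) Mt1 UMIs per Alb UMI, 9.55 (8.88 to 10.3) per Orm1 UMI and 0.129 (0.120 to 0.137) Mt2 UMIs per Mt1 UMI. Classical monocytes had 4.77, 8.58 and 0.146. B cells had 3.001 (2.77 to 3.26), below the hepatocyte-gated barcodes, 4.91 (4.45 to 5.43) and 0.239 (0.217 to 0.262), whose intervals overlapped those of the hepatocyte-gated barcodes. NK or ILC1 cells had 2.37, 4.01 and 0.274. In cDC2 Mt2 per Mt1 was lowest, at 0.102 (0.0699 to 0.145). Barcodes with under 200 genes in the MC38 library had 2.97 (2.33 to 3.81) Mt1 UMIs per Alb UMI, 3.99 (3.04 to 5.29) per Orm1 UMI and 0.292 (0.224 to 0.377) Mt2 per Mt1, and the first and second of these intervals contain the hepatocyte values. This did not hold in the control, where such barcodes had 0.0784 (0.0397 to 0.141) per Alb UMI and 1.0 (0.411 to 2.43) per Orm1 UMI, on 12 Mt1 UMIs. Control hepatocyte-gated barcodes had 0.950 (0.801 to 1.13) and 5.68 (4.15 to 7.92).

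**Figure D2:**
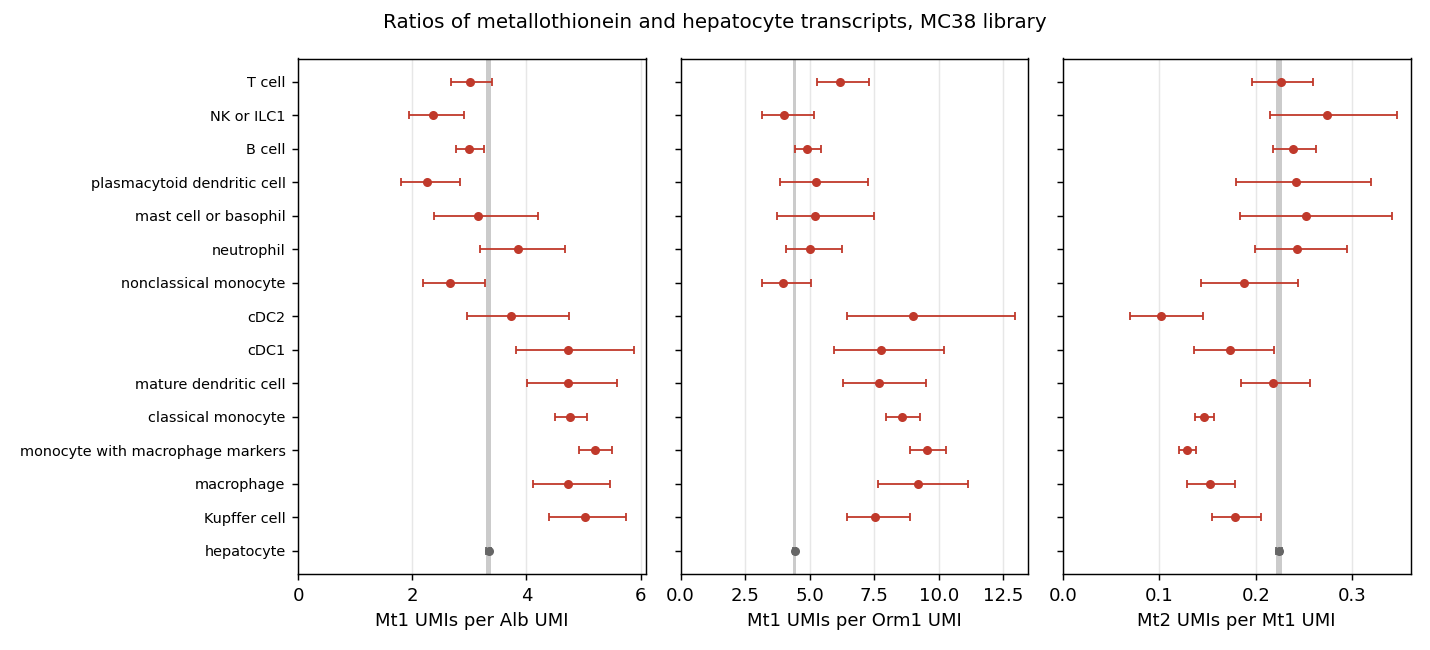
Mt1 UMIs per Alb UMI, Mt1 UMIs per Orm1 UMI and Mt2 UMIs per Mt1 UMI in the MC38 library, by class, with exact 95% intervals; the grey band is the interval of hepatocyte-gated barcodes. Classical monocytes, monocytes with macrophage markers, macrophages and Kupffer cells lie to the right of the band in the first and second panels and to its left in the third, nonclassical monocytes lie left of it in the first, and B cells lie just left of it, on its edge and on it.

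Scaled to the Orm1 UMIs at the hepatocyte ratio, hepatocyte RNA would amount to 58.3% of the Mt1 UMIs in MC38 immune cells, and scaled to Alb to 77.9%. By class the figures by Orm1 and by Alb were 46.3% and 64.3% in monocytes with macrophage markers, 51.5% and 70.1% in classical monocytes, 71.4% and 111% in T cells, 90.03% and 111% in B cells, and 110% and 141% in NK or ILC1 cells. A figure over 100% means that fewer Mt1 UMIs were counted than the scaling gives. For Mt2 over all immune cells the figures were 79.4% by Orm1 and 106% by Alb. The scaling left 1.51 Mt1 UMIs per MC38 immune barcode by Orm1 and 0.798 by Alb. In the control it left 0.0491 by Orm1, while by Alb it gave 234% of the Mt1 counted. Both control ratios rest on 34 barcodes. Since Orm1 per Alb differed between the immune classes and the hepatocyte-gated barcodes, no single scaling holds for both transcripts.

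Mt1 was also counted in barcodes without a single UMI of the 10 hepatocyte genes. There were 1617 such control and 952 such MC38 immune barcodes, 59.9% and 14.6% of all, with median depths of 6740 and 6958 UMIs. They held 14.6 CPM (12.5 to 16.9) and 303.5 CPM (291 to 316) of Mt1, and 0.106 and 2.296 UMIs per barcode. In MC38, monocytes with macrophage markers held 3.72 (3.47 to 3.98) Mt1 UMIs per such barcode, and macrophages 4.06 (3.41 to 4.80). Classical monocytes held 2.38 in MC38 and 0.166 in the control, T cells 1.13 and 0.0699, and B cells 1.14 and 0.0301. These barcodes were chosen for a count of 0, so hepatocyte RNA that did not yield a UMI of the list can be in them. B and T cells of MC38 stood close to the 1.05 Mt1 UMIs of barcodes with under 200 genes, but the sets are unlike. Barcodes with under 200 genes were not chosen for a count of 0 and had no mitochondrial limit. In MC38 they held 0.353 Alb and 0.263 Orm1 UMIs each. In cDC1, with 7 such MC38 barcodes of a median 4233 UMIs, the intervals of the libraries overlapped per barcode but not in CPM (185, 80.0 to 365, and 29.3, 17.4 to 46.3).

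**Figure D3:**
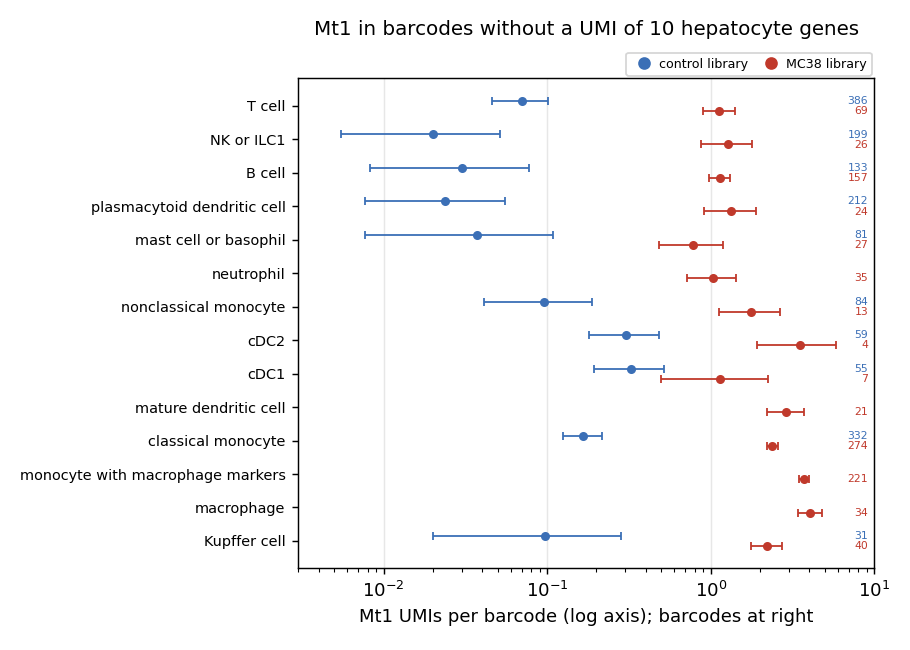
Mt1 UMIs per barcode (log axis) in immune barcodes without a UMI of 10 hepatocyte genes, by class, with exact 95% Poisson intervals and the number of barcodes at the right. MC38 T and B cells lie at 1.13 and 1.14, classical monocytes, monocytes with macrophage markers and macrophages at 2.38, 3.72 and 4.06, and each control point lies left of the MC38 point of its class.

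Within the classes divided by depth, Mt1 per barcode was higher in the deepest than in the shallowest barcodes, and so was Mtf1. A rise with depth was thus not particular to Mt1. Classical monocytes of MC38 were divided into 4 equal bins by UMIs per barcode, and from the shallowest (median 7688 UMIs) to the deepest Mt1 went from 2.302 (2.16 to 2.45) to 5.41 (5.20 to 5.63) UMIs per barcode. Alb was 0.726 in the shallowest and 0.740 in the deepest bin, and Orm1 0.389 and 0.510, and Mt1 did not rise at each step, with 3.35 and 3.14 in the bins between. In monocytes with macrophage markers Mt1 went from 2.60 to 7.03, Orm1 from 0.321 to 0.654 and Alb from 0.651 to 1.06. T cells had Mt1 at 1.27 and 5.68, Orm1 at 0.194 and 0.686 and Alb at 0.417 and 1.41 in the outer bins. Mtf1 had 0.141 and 0.442 UMIs per barcode in the outer bins of classical monocytes and 0.0194 and 0.392 in those of T cells. B cells had Mt1 at 1.12 and 5.73, Orm1 at 0.256 and 1.08 and Alb at 0.513 and 1.52 in the outer bins. In Kupffer cells the outer bins gave Mt1 at 1.82 and 10.0, Orm1 at 0.327 and 0.574 and Alb at 0.327 and 1.30. There Mt1 and Orm1 both rose to the second bin, to 6.24 and 1.22, and from the third to the fourth Mt1 went from 6.40 to 10.0 and Orm1 from 1.11 to 0.574.

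**Figure D4:**
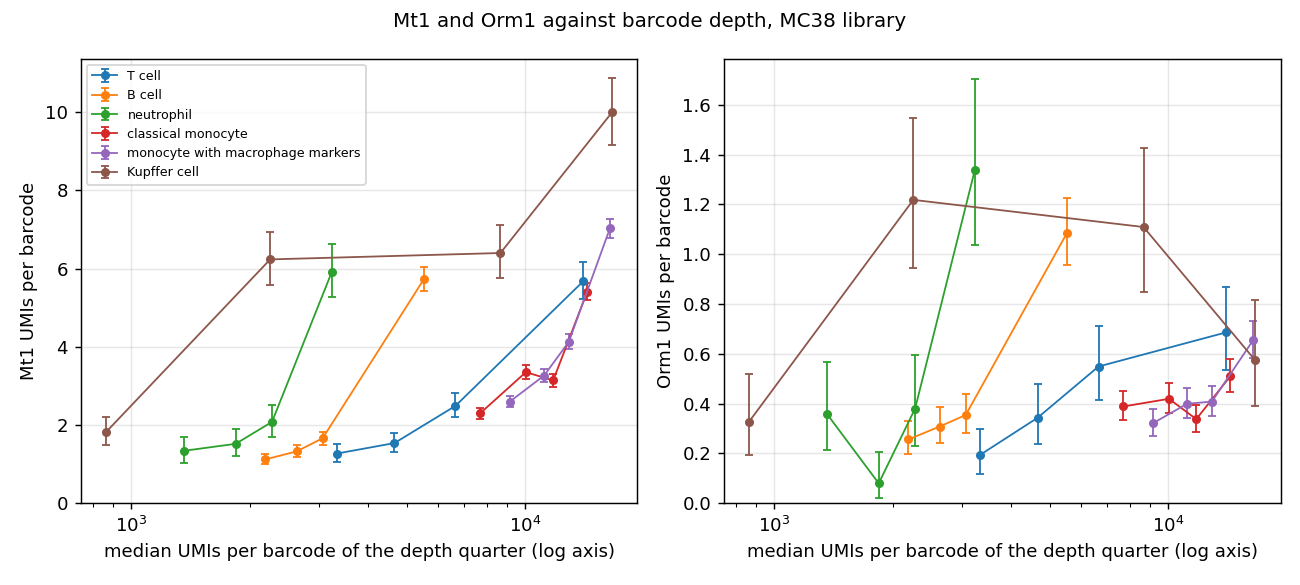
Mt1 (left) and Orm1 (right) UMIs per barcode in the MC38 library against the median UMIs of each of 4 depth bins (log axis) of 6 classes, with exact 95% Poisson intervals. Mt1 is highest in the deepest bin of each class shown. Orm1 is also highest there in each class but Kupffer cells, where it is lower in the deepest bin than in the one before. In classical monocytes Orm1 stays between 0.338 and 0.510.

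Mt1 was spread unevenly over barcodes. In MC38 immune cells the median was 2 Mt1 UMIs per barcode and the highest value 284, in a B cell-gated barcode, and the tenth of barcodes with most Mt1 held 46.1% of its UMIs. In monocytes with macrophage markers the median was 3, the highest value 91 and the variance 7.47 times the mean. In B cells the median was 1 and the variance 74.9 times the mean, with 1.79% of barcodes at 10 or more UMIs. Orm1 in the same B cells reached 39 UMIs in a barcode, with a variance 11.8 times its mean.

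The importer Slc39a14 had its highest level in pDC in both libraries. Over all immune cells it had 283 and 701 UMIs, 12.2 CPM (10.9 to 13.7) and 11.4 CPM (10.6 to 12.3), and the log2 fold of -0.10 (-0.31 to 0.10) was within counting error. In pDC it stood at 60.1 CPM (50.8 to 70.6) in the control and 56.2 CPM (42.9 to 72.4) in MC38, with a UMI in 38.3% and 32.1% of cells (7.02% and 5.71% after thinning to 1000 UMIs). The next classes were NK or ILC1 at 12.5 and 20.4 CPM, and their intervals did not reach those of pDC. MC38 hepatocyte-gated barcodes held 3.31 CPM (2.05 to 5.06) with a UMI in 0.649% of them at a median depth of 1626.5 UMIs, beside 7642.5 in MC38 pDC. Control hepatocyte-gated barcodes had 0 UMIs, and the floor of 3 counts stands at 36.3 CPM there.

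Across the other classes Slc39a14 was sparse. Of 3 classes with at least 50 UMIs, none reached a 2-fold difference. In classical monocytes 27 control and 198 MC38 UMIs gave 5.13 and 9.79 CPM, a log2 fold of 0.93 (0.35 to 1.57) that passed 2-fold with no mitochondrial limit (1.22), a stricter gate (1.39) or UMIs per barcode (1.15). Monocytes with macrophage markers, which are nearly absent from the control, held 12.6 CPM. Nonclassical monocytes had 0 and 7 UMIs, and the interval on the ratio of MC38 to control began at 2.13-fold. With the control set to the floor of 3 counts, the ratio was 3.46. In cDC1, with 3 and 2 UMIs, the gene was near the limit of detection in both libraries.

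The exporter Slc30a1 had its highest levels in Kupffer cells and, in the control, classical monocytes. Over all immune cells it had 279 and 659 UMIs, 12.1 CPM (10.7 to 13.6) and 10.7 CPM (9.90 to 11.6), with a log2 fold of -0.17 (-0.38 to 0.03). Kupffer cells held 23.1 CPM (9.28 to 47.6) in the control and 25.5 CPM (18.3 to 34.6) in MC38, on 7 and 41 UMIs. In classical monocytes 114 and 217 UMIs gave 21.6 CPM (17.9 to 26.0) and 10.7 CPM (9.35 to 12.3), a log2 fold of -1.01 (-1.35 to -0.67), and 5.01% of the genes tested in that class were at least 2-fold lower. The log2 fold fell inside 2-fold with median-ratio scaling (-0.97), a stricter gate or a mean over cells (both -0.92) and in UMIs per barcode (-0.79). Monocytes with macrophage markers held 12.4 CPM in MC38. In pDC the gene had 25 and 3 UMIs, 10.1 and 2.81 CPM, a log2 ratio of -1.85 (-4.22 to -0.14) (in barcodes without hepatocyte UMIs, 13 and 1 UMIs, 7.65 and 5.70 CPM with overlapping intervals). In T cells it had 8.81 and 8.25 CPM. MC38 hepatocyte-gated barcodes held 2.21 CPM.

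The regulator Mtf1 had nearly the same level in most classes. It had 488 and 1473 UMIs over all immune cells, 21.1 CPM (19.3 to 23.1) and 23.9 CPM (22.7 to 25.2), a log2 fold of 0.18 (0.03 to 0.33). In the 10 classes its level was between 17.1 and 26.3 CPM in the control and between 15.6 and 27.6 CPM in MC38, and none of the 6 classes with at least 50 UMIs reached a 2-fold difference. T cells had 19.9 and 19.7 CPM, classical monocytes 22.8 and 25.0 CPM. Mature dendritic cells, the activated state that migrates to lymph nodes, had the highest MC38 level at 43.5 CPM (33.7 to 55.3), an interval that overlapped those of Kupffer cells, neutrophils and mast cells or basophils. In the control 27 such cells gave 9 UMIs, 45.9 CPM. MC38 hepatocyte-gated barcodes held 21.6 CPM (18.1 to 25.5), inside the range of the immune classes.

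**Figure D5:**
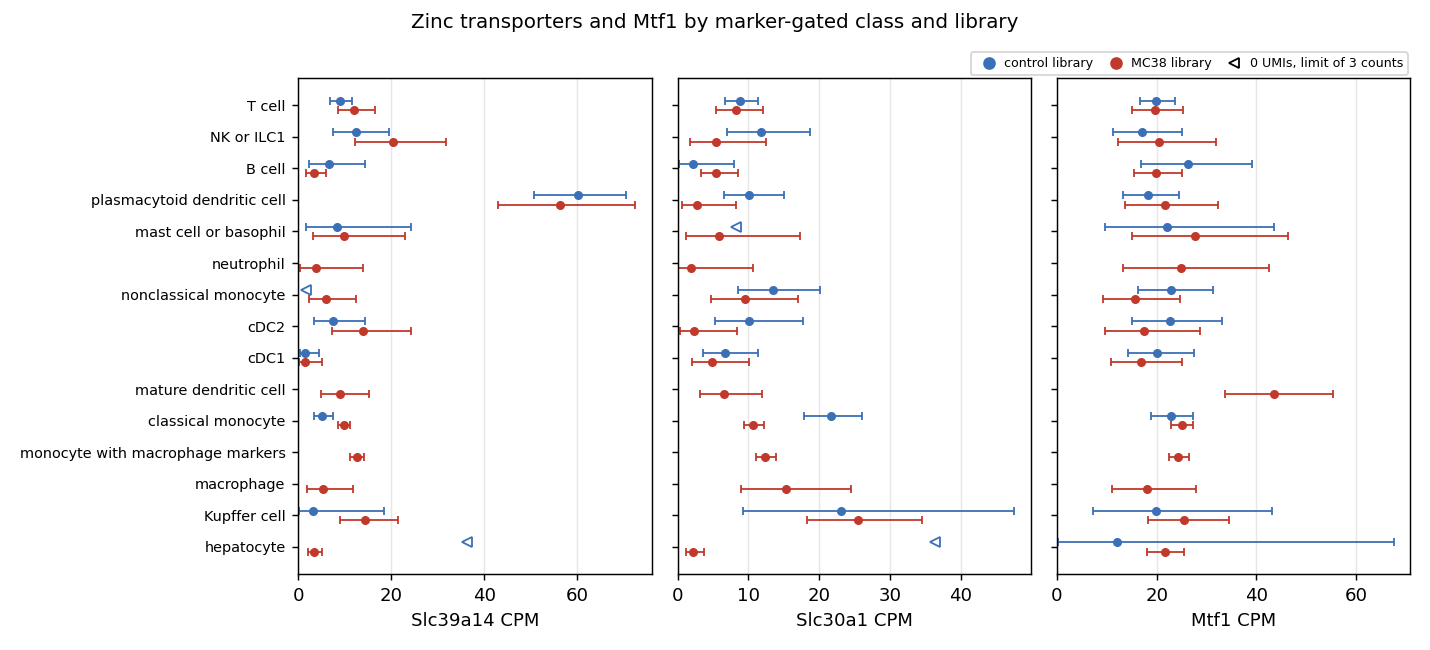
Slc39a14, Slc30a1 and Mtf1 levels (CPM, linear axes) by class and library, with exact 95% Poisson intervals; open triangles mark 0 UMIs and stand at the CPM of 3 counts. Slc39a14 stands out in pDC in both libraries, Slc30a1 in Kupffer cells and control classical monocytes, and Mtf1 in MC38 mature dendritic cells.

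The other genes of zinc handling were counted in the same way. Of 24 genes, 13 other Slc39 importers, 9 other Slc30 exporters, Mt3 and Mt4, 15 had at least 50 UMIs over all immune cells. Of these 0 were at least 2-fold higher and 1 was at least 2-fold lower, beside 8.36% and 11.6% of all genes tested, and so few genes do not set the list apart from that background. Their median log2 fold was -0.13, beside -0.12 over all 12494 genes tested. The highest were Slc39a7, which releases zinc from the endoplasmic reticulum, at 0.45, the plasma membrane importer Slc39a1 at 0.41 and Slc30a9 at 0.39. The lowest were the intestinal importer Slc39a4 at -1.16 (62 and 74 UMIs), Slc30a4 at -0.92 and Slc39a10 at -0.51. Mt3, the metallothionein of the brain, had 8 and 18 UMIs and Mt4, that of stratified epithelium, had 0 in both libraries.

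Likeness over classes and libraries split the 5 genes. Over 25 units of a class in a library with at least 50 cells, Pearson's r of log2(CPM + 10) was taken with 6064 genes of at least 20 CPM on average, as a description over units that share 2 libraries. Values were not centred within a library, so r also holds the difference between the 2 libraries. A gene far higher in the MC38 classes thus gives a high r with Mt1 and Mt2. Mt1 was most like Mt2 at 0.97 and then Mat1a, Orm1 and Pck1 at 0.96, which are genes of liver metabolism and of the acute-phase response. Among the genes most like Mt2 were Mat1a, Fabp1, Orm1 and Fam25c at 0.99. Without the hepatocyte unit Mt1 with Orm1 was still at 0.96 over 24 units. Mt1 with Slc39a14, Slc30a1 and Mtf1 gave -0.10, -0.20 and 0.14.

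The genes most like Slc39a14 were Fgfr1op2, D13Ertd608e, Npc1, Klk1 and Siglech, between 0.80 and 0.83, and Klk1 and Siglech were markers of the pDC gate. Slc30a1 was most like Dse, Lpl, Ctsc, Fam26f and Lipa, between 0.79 and 0.83. Mtf1 was most like Gadd45b, Fscn1, Tbc1d15, Cacnb3 and Sertad1, between 0.65 and 0.67, of which Fscn1 and Cacnb3 were markers of the mature dendritic cell gate.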

How the data were processed

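Each library is 1 deposited matrix of UMI counts per gene and barcode, per the file headers, with deposited barcode and gene tables that hold other, textual values. GRCm38.p6, R 3.6.0, Seurat 2.3.4, STAR, Cell Ranger 2.2 and bcl2fastq are listed in the submitters' processing notes, with no role or order, and the matrix header names software version 3.0.2. Sequencing reads were not analysed here, and each library, a pool of 3 mice, counts as 1 replicate.

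Barcodes needed 200 or more genes and no more than 10% mitochondrial UMIs, and scrublet calls (617 control, 1727 MC38) were removed, with an expected rate of 0.008 per 1000 barcodes. A barcode was gated to 1 of 20 classes when it held at least 3 markers and at least 50% of the class's list, with a margin of 20 percentage points; the others were called ambiguous (433 and 548) or passed no gate (252 and 1624). Hepatocytes were named only where no other gate passed, and monocyte and macrophage gates were resolved among themselves. CPM came from UMIs summed per class and library. A gene was called at a fold of at least 2 with at least 50 UMIs in both libraries together, and 0 counts were set to a floor of 3 counts. The named genes were the 5 members in each class with at least 50 cells in both libraries; of the other zinc genes, the 3 highest and 3 lowest folds; and, for each member, the 5 genes with the highest correlation over classes, of which some are not reported here. Python 3.11.15, numpy 2.4.6, scipy 1.17.1, pandas 2.3.3, scanpy 1.11.5 and matplotlib 3.10.9 were used, and the ratio intervals were tested on simulated data.

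The members, lists and markers were chosen with earlier results of these data known. The gate thresholds and the class of monocytes with macrophage markers were set after marker distributions were seen. Alternatives were other filters, gates and scalings, thinning, and the removal of hepatocyte RNA by Alb, Orm1 or barcode.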

Additional observations from a re-analysis of the deposited data

Results flagged for a closer look

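Some Mt1 signal lay outside the gated classes used above. Among barcodes that passed no gate, Mt1 stood at 4451 CPM (4379 to 4523) in 1624 MC38 barcodes, beside 174 CPM (149 to 201) in 252 control barcodes. Their median depth was 984.5 and 1842 UMIs, a Ptprc UMI was found in 15.8% and 46.0% of them, and 10 hepatocyte genes without Hp summed to 4017 and 657 CPM. Mt1 per Alb was 4.79 in these MC38 barcodes and 0.810 in the control ones.

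Among barcodes with an ambiguous gate, Mt1 stood at 410 CPM (396 to 423) in 548 MC38 barcodes and at 30.9 CPM (26.5 to 35.7) in 433 control barcodes. There Mt1 per Orm1 was 7.70 (6.98 to 8.50) in MC38, above the 4.42 of hepatocyte-gated barcodes, and Mt2 per Mt1 was 0.171 (0.157 to 0.187). The part of hepatocyte RNA in these levels was not tested.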

How the results depend on the processing

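Mt1 and Mt2 over all immune cells stayed at least 2-fold higher in MC38 under each alternative that gave a value. The log2 fold of Mt1 was 3.98 with a 5% mitochondrial limit, 4.42 with no limit, 4.72 with doublets kept, 4.41 with median-ratio scaling, 4.83 as a mean over cells, 4.58 thinned to 1000 UMIs, 4.44 with classes weighted equally, 4.40 in UMIs per barcode and 4.80 with hepatocyte RNA taken off by Orm1. For Mt2 it was 4.52 with the 5% limit, 5.73 in barcodes without hepatocyte UMIs, 5.97 as a mean over cells, 6.96 thinned (on 2 control barcodes) and 5.75 with classes weighted equally. For Slc39a14 it was 0.71 with the 5% limit, which leaves 448 control immune barcodes, -0.37 without hepatocyte UMIs, -0.44 as a mean over cells, -0.54 thinned and 0.37 with classes weighted equally, so its direction depends on the setting. For Slc30a1 it was -0.62 with the 5% limit, -0.55 thinned and -0.42 with classes weighted equally, and for Mtf1 -0.016 with classes weighted equally. Counts from barcodes without hepatocyte UMIs, UMIs per barcode and the Orm1 removal were chosen after seeing the data. The Mt1 value of 4.80 with that removal is given without an interval and is poorly determined. It rests on a control ratio of 5.68 (4.15 to 7.92) Mt1 UMIs per Orm1 UMI. That ratio came from 34 hepatocyte-gated barcodes with 47 Orm1 UMIs and left 133 of the 462 control Mt1 UMIs.

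Within classes, of the alternatives that gave a value, 104 of 104 for Mt1 and 60 of 61 for Mt2 stayed at least 2-fold higher; the exception was Mt2 in NK or ILC1 cells, 0.89 with Orm1 removal. Slc30a1 reversed in B cells with no mitochondrial limit (-0.58 against 1.31) and in cDC2 thinned to 1000 UMIs (0.56 against -2.12), each on few UMIs. Over all immune cells, taking off hepatocyte RNA gave no fold for Mt1 by Alb or for Mt2 by Alb or Orm1, because no control UMIs were left. For Mt2 by Alb no UMIs were left in MC38 either. By class the removal gave no fold for Mt1 in 9 of 10 classes by Alb and 5 by Orm1, and for Mt2 in 10 and 9. More Mt2 than was counted in MC38 was removed in 7 of the 10 classes by Alb and in 2 by Orm1. Taken off by Alb, more Mt1 than was counted in MC38 was removed in 6 of the 10 classes (T cells, NK or ILC1, B cells, pDC, nonclassical monocytes, mast cells or basophils), and by Orm1 in 2 (NK or ILC1, nonclassical monocytes), so for those classes no Mt1 was left. Of 138 values not given in all, 52 were of these removals and 86 had no UMI in a library. No paired analysis was possible because each group has 1 library, and no replicate could be left out. Sparse UMIs limit the transporters, which reached 50 UMIs in 3 (Slc39a14) and 2 (Slc30a1) of the 10 classes.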
